A study of Oryctolagus cuniculus with 57 samples.

Results

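The cytokine genes described here were IL15 and IL18, which intestinal epithelium produces, IFNG and IL22, which are products of lymphocytes, the IL18 receptor chain IL18R1, the IL18 binding protein IL18BP, and IL17B, a member of the IL17 family. They were chosen by name: every array probe whose gene name, accession or annotation pointed to one of these genes was taken, and all 7 were among the 7969 genes tested. In all 27 probes belonged to them, and 23 of these passed the filter on low signal. The levels came from the ileum of hybrid rabbits (PS Hyplus 19 × PS Hyplus 39), with 1 single-color Agilent array per rabbit, at 35 days of age (D35, weaning) and at 49 days (D49). The experiment asked whether the ingestion of doe feces in the nest, called coprophagia, changes ileal gene expression after weaning. Maternal feces were taken out of the nest in every group. NF pups received none in their place, FF pups received feces of unrelated (foreign) does, and FFab pups received feces of unrelated does that drank water with tetracycline and tiamulin. The numbers of rabbits used were 10 FF, 9 NF and 10 FFab at D35 and 9 of each treatment at D49. Litter and sex were not given in the labels, so rabbits were treated as independent.

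Of 57 arrays, 56 were used. NF rabbit lap78 at D35 was left out, as in the methods of the study. The 57 arrays lay on 9 slides with all 6 groups on each slide, and 66% to 83.7% of the spots of an array were well above background. Rabbit lap78 had the only NF array at D35 on its slide, so among the 56 arrays that slide lacked this group. Epithelial markers had signal in every group: the summed level of the 9 of 13 listed markers that were measured lay between 18.15 and 19.23 on the log2 scale. The tissue was whole ileum. A lower level can therefore come from fewer cells of a type or from less RNA per cell, and these cannot be told apart here.

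As background, IL15 sustains intraepithelial lymphocytes and natural killer cells and is presented to them by neighboring cells. IL18 is made as a precursor, is cut by caspase-1, and acts through a receptor that contains IL18R1 to make lymphocytes release interferon gamma, the product of IFNG, while IL18BP captures IL18 and is itself induced by interferon gamma. Interferon gamma acts on epithelial cells to raise antigen presentation and chemokine release, and interleukin 22, made by innate lymphoid cells and T helper cells, acts on the epithelium through STAT3 to induce antimicrobial proteins and mucins. IL17B is a ligand of the IL17RB receptor, and its role in the rabbit gut is not settled.

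The sequences that the probes read are shown because several probes of a gene overlapped and so were not separate measurements. Each is a probe of 60 bases from the array files, written 5′ to 3′. Capitals mark the stretch common to a set of overlapping probes of the same gene that differ in sequence.
IL15: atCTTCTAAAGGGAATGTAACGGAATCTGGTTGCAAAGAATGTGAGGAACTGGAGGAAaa
IL18: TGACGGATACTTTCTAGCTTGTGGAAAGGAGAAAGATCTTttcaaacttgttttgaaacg
IL18R1: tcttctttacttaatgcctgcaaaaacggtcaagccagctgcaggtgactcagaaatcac
IL18BP: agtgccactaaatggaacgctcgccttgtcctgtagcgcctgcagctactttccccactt
IFNG: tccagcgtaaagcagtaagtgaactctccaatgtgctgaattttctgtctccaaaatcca
IL22, tested probe: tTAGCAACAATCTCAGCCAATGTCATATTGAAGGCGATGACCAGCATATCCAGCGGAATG
IL22, dim probe: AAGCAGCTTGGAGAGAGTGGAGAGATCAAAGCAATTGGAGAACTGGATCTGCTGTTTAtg
IL17B: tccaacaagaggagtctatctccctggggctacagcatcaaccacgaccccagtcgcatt

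On the rabbit build oryCun2 used by the files, the IL15 probe lies at chr15:22774153-22776815 (minus strand), IL18 at chr1:104234257-104234316 (plus), IL18R1 at chr2:90031808-90031867 (minus), IL18BP at chr1:144365074-144365694 (minus), and IL17B at chr3:31217559-31219710 (minus). The tested IL22 probe lies at chr4:47241315-47242292 and the dim IL22 probe at chr4:47237901-47241291, both on the minus strand. The files give the tested IL18 probe and the IFNG probe no position. The IL18 position is that of A_04_P001101, an array probe with the same sequence. For IL15, IL18BP, IL22 and IL17B the interval is longer than the probe, so the probe crosses a gap in the genome. The stretch in capitals was carried by 6 of the 7 IL15 probes, by 3 of the 5 IL22 probes for the dim probe and by 2 for the tested probe. In IL18 it is the 40 bases shared with a neighboring probe, and another probe on the array has the whole IL18 sequence. Probes with the same sequence printed at separate places on the array gave differences between rabbits with an SD of 0.06 to 0.11 on the log2 scale, against an SD between rabbits of a group of 0.30 to 0.52. A further array probe is named for both IFNG and HCST, an adaptor of natural killer cells, and was not read as IFNG. It was above background on all 56 arrays and its age change in FF was 0.16.

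Between D35 and D49 all 7 genes were up-regulated in FF rabbits and none passed the test in NF or in FFab. A gene passed at an adjusted p-value under 0.05 (limma, adjusted over 7969 genes) and a log2 fold change (log2FC) beyond 0.5. In FF 4.53% of the genes tested passed, 2.94% of them upward. Since the genes other than IL22 were singled out by the study on the same arrays, this count is a description and no independent evidence of its direction. IFNG and IL22 moreover passed the filter on low signal only through D49 groups in which they were high, which favors their tests. With probes above background on every array, the other 5 genes were measured and all 5 passed. The median log2FC of the 7 genes was 1.27 in FF, 0.41 in NF and 0.38 in FFab, beside a median of all genes of -0.01, -0.005 and -0.004. Over all genes, the test passed 0.0251% in NF and 0.0878% in FFab. Without the adjustment, p was under 0.05 for 2 of the 7 in NF (IL18R1 and IFNG) and for 1 in FFab (IL18), where 6.27% and 8.68% of all genes were as low.

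**Figure D1:**
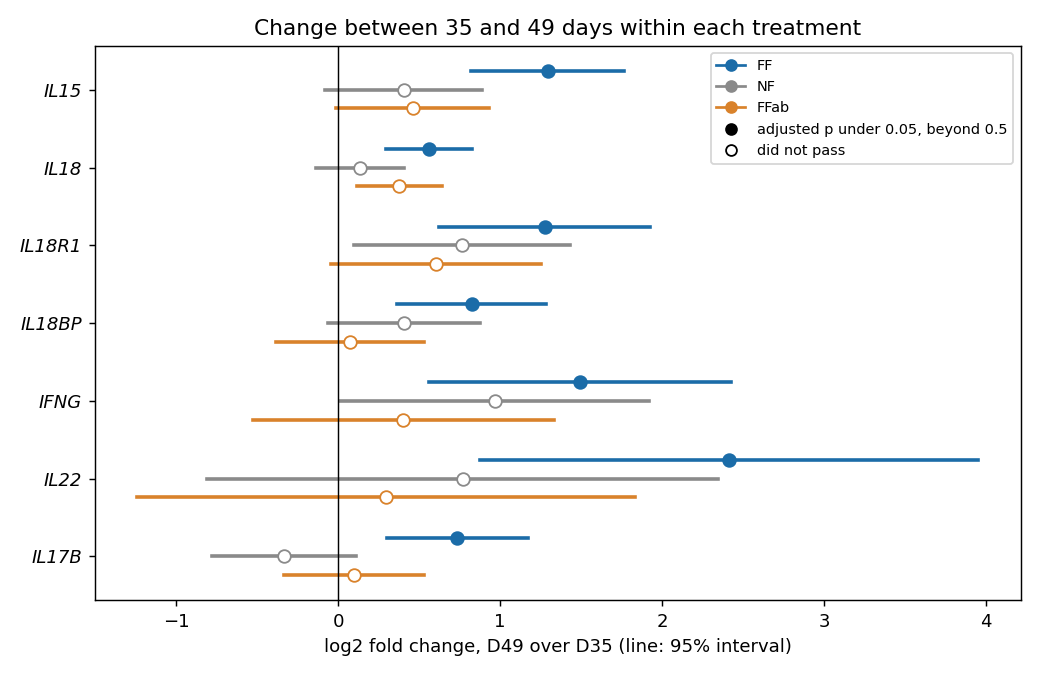
log2 fold change from D35 to D49 for each gene within FF, NF and FFab, with the 95% interval as a line; filled points passed the test. In FF the changes lie between 0.56 for IL18 and 1.49 for IFNG, apart from IL22. Its 2.41 is a fitted value against a group not above background. The NF and FFab points of each gene lie to the left of its FF point.

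Of the cytokines of epithelial origin, IL15 was separated between the ages in FF and IL18 overlapped in part. The lowest, median and highest IL15 levels in FF were 7.73, 8.70 and 9.20 (log2) at D35, and 9.37, 9.88 and 10.38 at D49. All 9 D49 rabbits therefore stood above the highest of the 10 D35 rabbits. The rise was 1.29 (SE 0.24, 95% interval 0.82 to 1.77, a fold change of 2.45, adjusted p = 0.000296), and it was seen on 9 of 9 slides when the FF rabbits of each slide were compared. In NF the IL15 levels were 8.54, 9.54 and 10.08 at D35 and 8.59, 9.81 and 10.45 at D49, and in FFab 8.37, 9.31 and 10.19 at D35 and 8.92, 9.74 and 10.23 at D49. Both ranges overlapped, with log2FC of 0.40 (95% interval -0.08 to 0.89) in NF and 0.46 (-0.01 to 0.93) in FFab. All 7 IL15 probes passed in FF, with changes of 1.12 to 1.29.

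IL18 levels in FF were 11.39, 11.50 and 11.99 at D35 and 11.61, 12.14 and 12.47 at D49. Here 8 of 9 D49 rabbits lay above the highest D35 value. The IL18 rise was 0.56 (SE 0.13, fold change 1.47, adjusted p = 0.00443), the smallest of the 7, and 7 of its 8 probes passed, with changes of 0.47 to 0.58. The probe that missed the fold threshold, A_04_P001101 (0.47), has the same sequence as the tested probe. The IL18 call thus lay close to that threshold and depended on which copy was read. In NF the IL18 levels were 11.37, 12.01 and 12.28 at D35 and 11.73, 12.01 and 12.24 at D49, so the medians were equal. In FFab they were 11.30, 11.88 and 12.18 at D35 and 11.23, 12.31 and 12.63 at D49, a log2FC of 0.38 (SE 0.13, unadjusted p = 0.00613, adjusted p = 0.346). Averaged over the treatments the IL18 change was 0.36 (adjusted p = 0.000912), below the fold threshold.

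**Figure D2:**
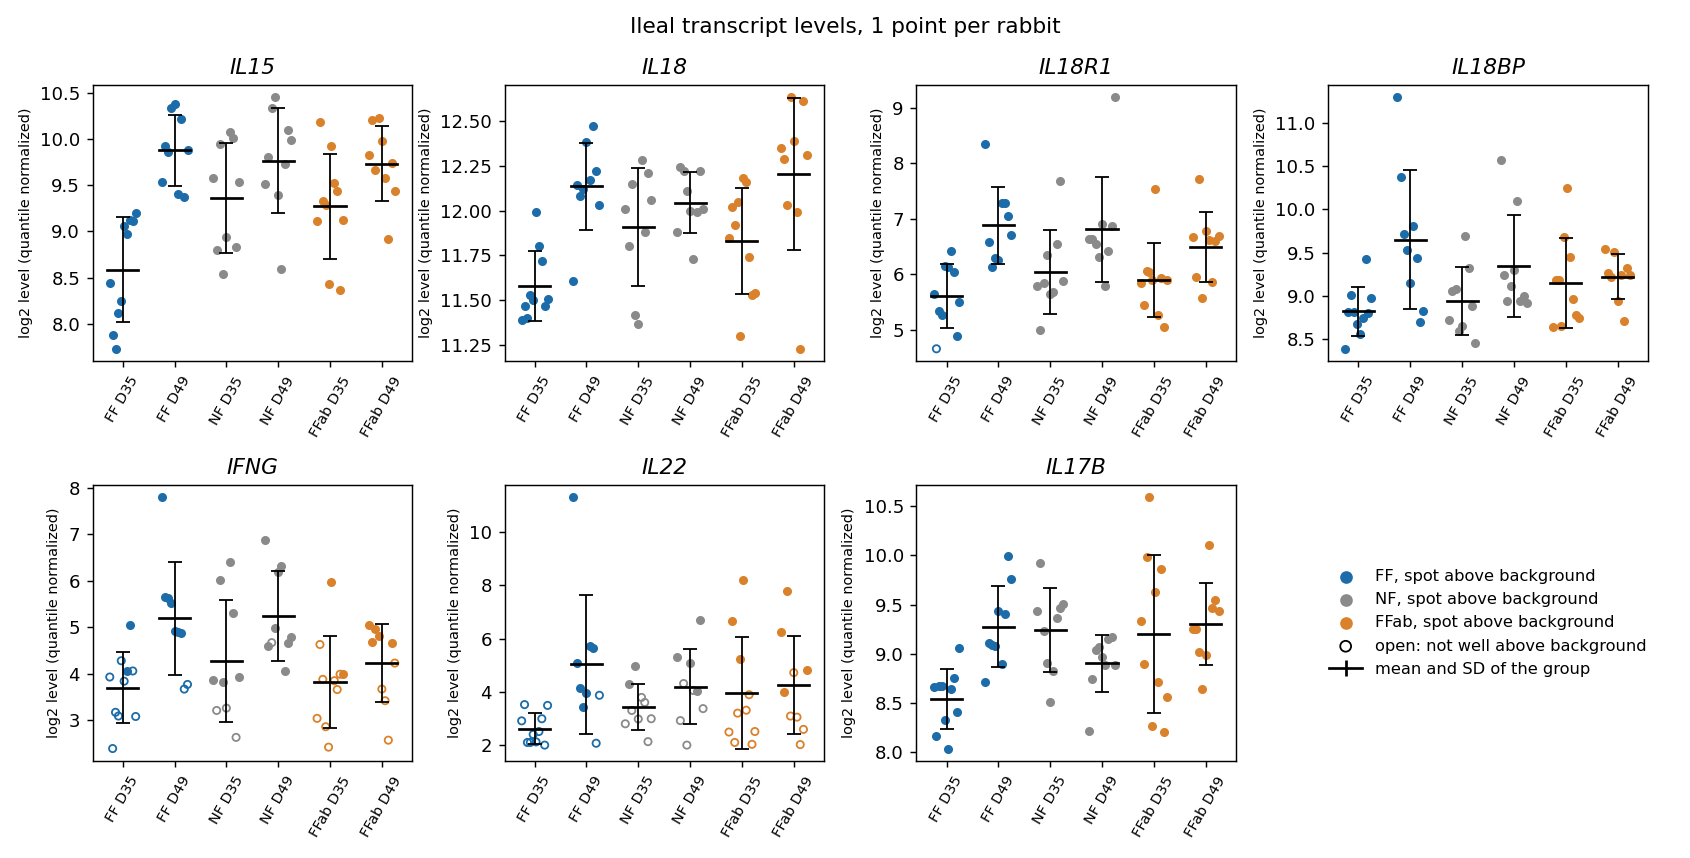
Quantile normalized log2 level of each gene in every rabbit, by treatment and age, with the mean and SD of each group; open points were not well above background. FF at D35 has the lowest mean in all 7 panels, and IL22 and IFNG are mostly open there, with 0 and 2 of 10 rabbits above background.

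IL18R1, the chain that binds IL18, had levels in FF of 4.66, 5.58 and 6.42 at D35 and 6.13, 6.70 and 8.34 at D49. With D49 rabbits above the D35 range in 6 of 9 cases, the groups overlapped in part. The change was 1.27 (SE 0.32, fold change 2.42, adjusted p = 0.00833), and all 3 IL18R1 probes passed, with 1.27 to 1.62. In NF the levels were 5.0, 5.84 and 7.67 at D35 and 5.79, 6.63 and 9.18 at D49, with a log2FC of 0.76 (SE 0.33, adjusted p = 0.699). In FFab they were 5.06, 5.89 and 7.53 at D35 and 5.58, 6.61 and 7.72 at D49, with a log2FC of 0.60 (SE 0.32, adjusted p = 0.62). The median was higher at D49 in every treatment. A second IL18R1 probe, A_04_P074399, was above background on 24 of 27 D49 arrays and on 9 of 29 D35 arrays, a description, since D49 groups carried it through the filter.

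IL18BP, the soluble inhibitor of IL18, had levels in FF of 8.39, 8.81 and 9.43 at D35 and 8.70, 9.53 and 11.29 at D49. The change was 0.82 (SE 0.23, fold change 1.77, adjusted p = 0.0156), and 6 of 9 D49 rabbits lay above the D35 range. In NF the levels were 8.46, 8.88 and 9.69 at D35 and 8.92, 9.12 and 10.57 at D49, a log2FC of 0.41 (SE 0.23). In FFab they were 8.64, 9.07 and 10.25 at D35 and 8.71, 9.24 and 9.54 at D49, a log2FC of 0.07 (95% interval -0.39 to 0.53). IL18BP in FFab thus had the smallest age change found for any of the genes in any treatment, and its D49 rabbits lay inside the D35 range.

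IFNG and IL22, the lymphocyte products, were close to background, and the share of arrays on which they could be seen was part of the result. A probe counted as above background on an array when at least 50% of its spots were well above background. IFNG was above background in 2 of 10 FF rabbits at D35 and in 7 of 9 at D49, in 6 of 9 and 8 of 9 NF rabbits, and in 2 of 10 and 5 of 9 FFab rabbits. Over the treatments this was 10 of 29 D35 arrays and 20 of 27 D49 arrays, given with no test because IFNG entered through D49 groups in which it was high: the filter asked for signal above background on no fewer than 75% of the arrays in any group. Its levels in FF were 2.39, 3.89 and 5.05 at D35 and 3.67, 4.91 and 7.80 at D49. Of the 9 D49 rabbits 4 lay above the D35 range, and the log2FC was 1.49 (SE 0.46, adjusted p = 0.0334). In NF the IFNG levels were 2.63, 3.87 and 6.41 at D35 and 4.07, 4.79 and 6.87 at D49, with a log2FC of 0.97 (SE 0.48, unadjusted p = 0.0472, adjusted p = 0.79). In FFab they were 2.42, 3.87 and 5.97 at D35 and 2.57, 4.67 and 5.04 at D49, with a log2FC of 0.40 (95% interval -0.53 to 1.33). The D35 medians of the 3 treatments were nearly the same, and no FFab rabbit at D49 exceeded the D35 range.

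IL22 was not well above background in any of the 10 FF rabbits at D35 and was above it in 7 of 9 at D49. It was visible in 2 of 9 and 4 of 9 NF rabbits and in 3 of 10 and 4 of 9 FFab rabbits at the respective ages. FF at D49 was the group through which IL22 passed the filter. The FF levels were 2.00, 2.45 and 3.52 at D35 and 2.07, 4.16 and 11.3 at D49, and 7 of 9 D49 rabbits lay above the D35 range. FF values at D35 that lay under the lowest signal seen above background on their array were raised to it. This moved their mean from 2.61 to 2.71. Against the raised mean, FF rabbits at D49 had 4.98-fold more IL22 signal (mean of log2 values). The fit on the measured means, 5.03 and 2.61, gave an adjusted p of 0.0376 (limma). The fold is no strict lower bound: D35 values up to 3.52 were not well above background, and the D49 mean includes rabbits that were not. With no filter on dim probes IL22 was read from another probe, A_04_P089395, and did not pass in FF (1.98, adjusted p = 0.145). In NF the levels were 2.13, 3.30 and 4.98 at D35 and 2.00, 4.05 and 6.70 at D49, and in FFab 2.03, 3.26 and 8.20 at D35 and 2.02, 3.99 and 7.79 at D49. These overlapped over most of their length, with log2FC of 0.77 (95% interval -0.81 to 2.35) and 0.29 (-1.25 to 1.83). The tested IL22 probe was above background on 5 of 29 D35 and 15 of 27 D49 arrays, and no test is given for it, as it was kept for its signal in FF at D49. Of the IL22 probes that were not kept, A_04_P089395 was above background on 5 and 13 arrays (Fisher's exact test, two-sided, unadjusted p = 0.0214). Its adjusted p over 8 tests of partly visible probes was 0.0428. Those 8 tests include the probes kept for their signal at D49, which lowers this adjusted p, so no conclusion is drawn from it. The probe shares 59 of its 60 bases with the tested IL22 probe and is no separate measurement. For the other 3 IL22 probes the adjusted p lay between 0.138 and 0.227. The 4 of 5 IL22 probes outside the fit were too dim to be kept, and 3 of these were below background in all FF rabbits at D35. Their folds against D35 means raised in the same way were 3.28 to 3.53 (1.85 to 2.0 without FF rabbit lap158, described next).

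A single FF rabbit at D49, numbered lap158 in the labels, carried much of the rise of the lymphocyte products. Its IL22 level was 11.3 where the next FF rabbit had 5.71, and its IFNG level was 7.80 where the next had 5.65. It also had the highest IL18R1 (8.34) and IL18BP (11.29) of its group together with the lowest IL18 (11.61) and IL17B (8.72). Without this rabbit the FF changes of IFNG (1.17, adjusted p = 0.101), IL22 (1.63, adjusted p = 0.13) and IL18BP (0.62, adjusted p = 0.0538) no longer passed. The fold of IL22 against the raised D35 mean fell to 2.89. IL15 (1.34), IL18 (0.63), IL18R1 (1.09) and IL17B (0.80) still passed, so that 4 of 7 were called where 4.35% of all genes were. The Fisher test of IL22 probe A_04_P089395 over the treatments went to an unadjusted p of 0.0392 (0.0784 adjusted over the same 8 tests). IFNG and IL22 also depended on other rabbits. IFNG did not pass without any of 8 arrays (FF lap82, lap87, lap88 and lap104 at D35, lap158, lap159, lap180 and lap181 at D49), with changes of 1.17 to 1.45 and adjusted p of 0.0532 to 0.101. IL22 did not pass without any of 10 (FF lap87, lap88, lap89, lap90, lap101 and lap103 at D35, lap158, lap159, lap208 and lap209 at D49), with changes of 1.63 to 2.41 and adjusted p of 0.0513 to 0.13.

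IL17B was the only one of the 7 genes with a negative fitted age change in a treatment, in NF, where it did not pass. Its levels in FF were 8.04, 8.65 and 9.06 at D35 and 8.72, 9.11 and 9.99 at D49, and 7 of 9 D49 rabbits lay above the D35 range. The change was 0.73 (SE 0.22, fold change 1.66, adjusted p = 0.0235). In NF the levels were 8.51, 9.36 and 9.92 at D35 and 8.22, 8.97 and 9.17 at D49, so no D49 rabbit reached the D35 median, with a log2FC of -0.34 (95% interval -0.78 to 0.11). In FFab they were 8.21, 9.12 and 10.59 at D35 and 8.64, 9.25 and 10.11 at D49, with a log2FC of 0.10 (-0.34 to 0.53). The call in FF was lost without FF rabbit lap212 (0.65, adjusted p = 0.0593) or lap213 (0.67, adjusted p = 0.0511) at D49.

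IL17B levels ran with those of smooth muscle genes. The 3 genes with the highest Pearson r to IL17B over the 56 arrays were ACTG2 (0.887), DES (0.886) and CSRP1 (0.882), the smooth muscle actin, desmin and a cytoskeletal LIM protein, and their r was 0.881, 0.883 and 0.879 after the group means were removed. These are descriptions over arrays that share their normalization. The 5 of 8 listed smooth muscle markers that were measured had a median log2FC of 0.39 in FF, -0.18 in NF and 0.04 in FFab, and none passed (ACTG2 0.75, adjusted p = 0.115, DES 0.63, adjusted p = 0.166). Their summed level ran from 16.05 to 17.67 in FF at D35 and from 16.91 to 18.44 at D49, and from 16.75 to 18.42 and 16.75 to 18.0 in NF. With the mean of these markers as a covariate, a fit chosen after the data had been seen, IL17B in FF changed by 0.34 (adjusted p = 0.037), below the fold threshold, and the other 6 genes still passed.

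With the mean of the 10 measured T cell markers as the covariate, also chosen after the data had been seen, IL15 (1.14), IL18 (0.52), IL18R1 (1.24) and IL17B (0.93) passed in FF. IFNG (0.90, adjusted p = 0.21), IL22 (1.56, adjusted p = 0.209) and IL18BP (0.53, adjusted p = 0.118) did not. The T cell markers themselves had a median log2FC of 0.33 in FF, 0.26 in NF and 0.27 in FFab, and 1 of the 10, CD96, a receptor of T and natural killer cells, passed in FF (1.20, adjusted p = 0.00211). Their summed level was 11.02 to 12.31 in FF at D35 and 11.25 to 12.56 at D49, with overlapping ranges. No CD3 chain was among the genes measured. The plot of the FF age change under 4 fits sets these values side by side.

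**Figure D3:**
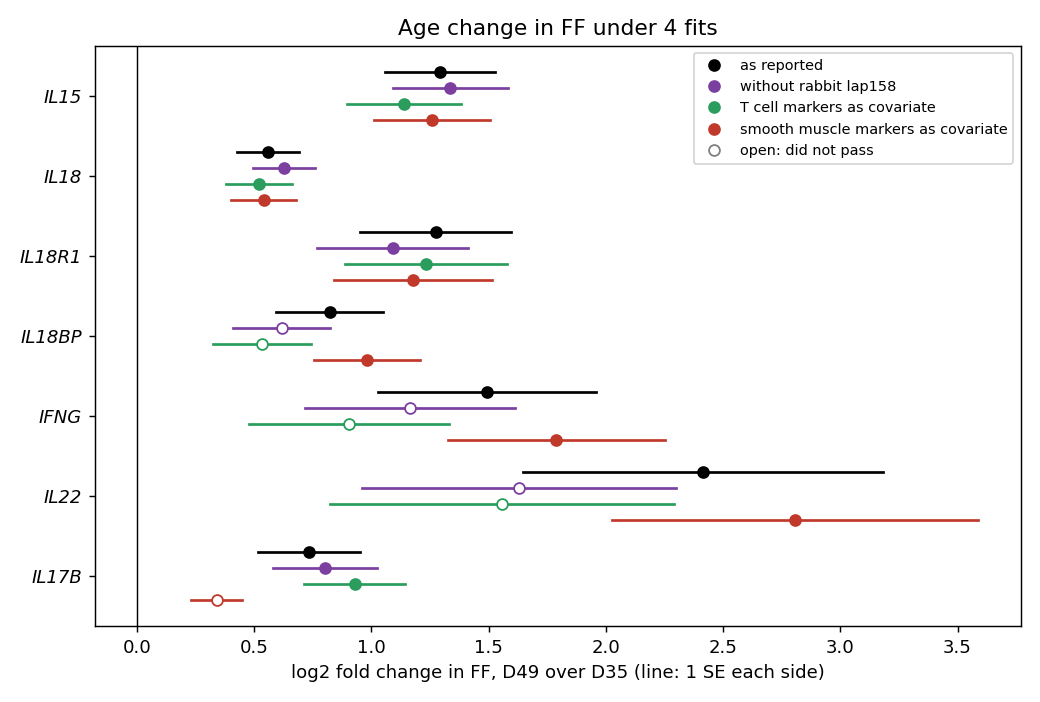
log2 fold change in FF from D35 to D49 under the fit as reported, without rabbit lap158, and with the mean of the T cell or smooth muscle markers as a covariate; lines are 1 SE to each side and open points did not pass. IL15, IL18 and IL18R1 are filled in all 4 fits, IL18BP, IFNG and IL22 are open in a pair of them, and IL17B is open with smooth muscle markers alone, at 0.34.

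Averaged over the 3 treatments, IL15 (0.72, SE 0.14, adjusted p = 0.000219), IL18R1 (0.88, SE 0.19, adjusted p = 0.000872) and IFNG (0.95, SE 0.27, adjusted p = 0.0113) passed with age, 3 of the 7 where 3.53% of all genes passed, 2.43% upward. IL18BP was below the fold threshold (0.43, adjusted p = 0.02). IL22 (1.16, SE 0.45, adjusted p = 0.0745) and IL17B (0.17, adjusted p = 0.445) did not pass. IL22 passed when FF rabbit lap212 at D49 (1.28, adjusted p = 0.0416), FFab rabbits lap96 (1.26, 0.0472) or lap108 (1.32, 0.0258) at D35 or FFab rabbit lap201 at D49 (1.25, 0.0465) was left out. When the D35 and D49 rabbits of each slide were compared, the D49 mean was higher on 9 of 9 slides for IL15, IL18, IL18R1, IL18BP and IFNG. It was higher on 8 slides for IL22 and on 6 for IL17B. The slide of rabbit lap78 had no NF rabbit at D35 in this comparison. Within FF alone the D49 mean was higher on 9 slides for IL15, IL18 and IL17B, on 8 for IL18R1 and IL22 and on 7 for IL18BP and IFNG.

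Whether the treatments differed at a given age was a separate question, and none of the 7 genes passed it. At D35, 0.0376% of all genes passed between FF and NF, 0.0125% between FF and FFab and 0% between NF and FFab. At D49, and with both ages averaged, 0% passed in all 3 comparisons (limma, 0 genes each). The FF mean at D35 was the lowest of the 6 group means for all 7 genes, which held for 24% of all genes, and a choice of genes that rose with age in FF favors that order. At D35 IL15 in FF was 0.78 below NF (SE 0.24, unadjusted p = 0.00179, adjusted p = 0.281) and 0.69 below FFab (SE 0.23, unadjusted p = 0.00436, adjusted p = 0.424). IL17B in FF was 0.70 below NF (unadjusted p = 0.00206) and 0.66 below FFab (unadjusted p = 0.00264), and IL18 was 0.33 below NF (unadjusted p = 0.0144). That made 3 genes at an unadjusted p under 0.05 against NF and 2 against FFab, beside 7.92% and 6.32% of all genes, and none between NF and FFab, beside 1.92%. Without rabbit lap158 IL18 (unadjusted p = 0.0496) and IL22 (unadjusted p = 0.0372) joined them against FFab, which made 4. The interval of IL15 between NF and FFab ran from -0.38 to 0.57.

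At D49 the order of the groups changed. FF had the highest mean for IL15, IL18R1, IL18BP and IL22, FFab for IL18 and IL17B, and NF for IFNG. Part of this order rested on rabbit lap158: without it FF minus NF was -0.11 for IL18R1, and FF minus FFab was -0.01 for IL22 and 0.04 for IL17B. The spread of the group means was narrower at D49 than at D35 for IL15 (0.15 and 0.78) and for IL18 (0.16 and 0.33). It was also narrower for IL22 (0.83 and 1.35), IL17B (0.4 and 0.7) and IL18R1 (0.38 and 0.44). For IFNG (1.01 and 0.58) and IL18BP (0.43 and 0.33) it was wider. IFNG in FFab was 0.96 below FF (SE 0.48, unadjusted p = 0.0489) and 1.01 below NF (SE 0.48, unadjusted p = 0.0385), both with adjusted p = 1. Without rabbit lap158 the first of these was 0.63 (unadjusted p = 0.173). IFNG was the only gene of the 7 at an unadjusted p under 0.05 at D49, with 2.37% of all genes between FF and FFab, 1.79% between NF and FFab and 1.2% between FF and NF, where there was none. With the ages averaged, IL17B in FF was 0.35 below FFab (unadjusted p = 0.0279) and IFNG in NF was 0.73 above FFab (unadjusted p = 0.0331), beside 5.48% and 3.15% of all genes, and none differed at that level between FF and NF, beside 3.33%.

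That the genes passed in FF and not elsewhere is no test of a difference between treatments, so the age changes were compared directly. No gene passed for any pair of treatments, as 0% of all genes did in each of the 3 comparisons. The IL17B change was larger in FF than in NF by 1.07 (SE 0.31, unadjusted p = 0.0011, adjusted p = 0.761), the IL15 change by 0.89 (SE 0.34, unadjusted p = 0.0112, adjusted p = 0.919) and the IL18 change by 0.43 (SE 0.19, unadjusted p = 0.0279, adjusted p = 1). Against FFab the change in FF was larger by 0.83 for IL15 (unadjusted p = 0.0158), 0.75 for IL18BP (unadjusted p = 0.0237) and 0.64 for IL17B (unadjusted p = 0.0419), all with adjusted p = 1. In these comparisons 3 of 7 genes were at an unadjusted p under 0.05, beside 4.62% and 2.91% of all genes, and none was between NF and FFab, beside 0.853%. A choice of genes that rose with age in FF favors the counts that involve FF, so they are a description and no independent evidence. Without rabbit lap158 the count against FFab was 2, as IL18BP went to 0.55 (unadjusted p = 0.0648). The smooth muscle markers differed in the same direction as IL17B: the median of the 5 differences between the FF and NF age changes was 0.63, all 5 were positive and 2 were at an unadjusted p under 0.05. At D35 their median was -0.47 for FF minus NF, with 3 of 5 at that level, and -0.55 for FF minus FFab, with 2 of 5. With these markers as the covariate, the IL17B difference between the FF and NF age changes was 0.53 (unadjusted p = 0.00141, adjusted p = 0.775), that between FF and FFab 0.27 (unadjusted p = 0.0763), and IL17B at D35 was 0.28 below NF (unadjusted p = 0.0138) and 0.27 below FFab (unadjusted p = 0.0142). For IFNG the difference between FF and NF had a 95% interval of -0.81 to 1.86, and for IL22 of -0.56 to 3.85.

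Rabbits were then compared within their groups, to see which cytokines were high in the same animals. Levels were taken as deviations from the group mean over 56 rabbits, and 4 of 21 pairs passed by both Pearson's r and Spearman's rho (permutation p, 100000 permutations within groups, adjusted over 21 pairs). The epithelial cytokines went together: IL15 and IL18 had r = 0.65 and rho = 0.64 (both adjusted p = 0.0001, from p = 1e-05, the smallest the permutations can give). The r was 0.63 without the 2 farthest rabbits and 0.61 with slide means removed, but -0.09 when NF rabbit lap78 was put back. That rabbit had an IL18 level of 13.7 and an IL15 level of 5.56, the first above and the second below every other rabbit. By Pearson's r, and so by the rule of both measures, the IL15 and IL18 relation therefore rests on the exclusion of lap78. The rho with this rabbit put back is not given.

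IFNG, IL18BP and IL22 are called the other set here, although IFNG and IL22 did not pass by both measures. IL18BP and IFNG had r = 0.71 and rho = 0.60 (both adjusted p = 0.0001), 0.63 without the 2 farthest rabbits and 0.74 with slide means removed. IL18BP and IL22 had r = 0.59 and rho = 0.45 (permutation p adjusted 0.00084 and 0.0071), with r = 0.46 without the 2 farthest and 0.69 with slide means removed. IL15 and IFNG had r = 0.36 and rho = 0.39 (permutation p adjusted 0.033 and 0.026), with 0.46 without the 2 farthest and 0.32 with slide means removed (adjusted permutation p = 0.089), close in size, with an adjusted p that missed the threshold. IFNG and IL22 passed by r (0.49, adjusted permutation p = 0.0024) and not by rho (0.33, 0.057), and r was 0.28 without the 2 farthest rabbits. Leaving out rabbit lap158 gave r = 0.65 for IL18BP and IFNG, 0.44 for IL18BP and IL22 and 0.37 for IFNG and IL22, and 4 pairs passed again. The sets were not separate, since IL15 and IFNG passed by both measures. Other pairs across the sets had a low r: IL22 had 0.07 with IL15 and -0.08 with IL18. IL18BP had r = -0.01 with IL18, the cytokine that it binds. The IFNG probe was above background on 30 arrays and the tested IL22 probe on 20. The r of IFNG and IL22 therefore rest in part on values not well above background. IL18R1 had its highest r with IL22 (0.38, rho 0.28, adjusted permutation p 0.026 and 0.12). IL17B had r of -0.29 with IFNG and -0.30 with IL18BP, and neither passed by both measures.

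**Figure D4:**
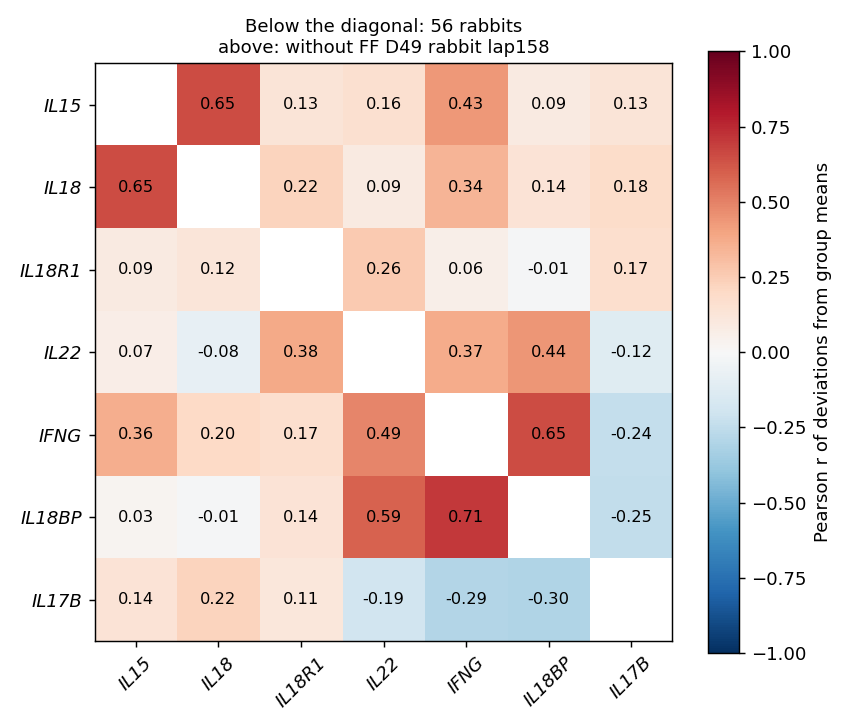
Pearson's r between the genes over rabbits, as deviations from the group means, with all 56 rabbits below the diagonal and without FF rabbit lap158 at D49 above it. IL15 with IL18 (0.65) and the block of IL22, IFNG and IL18BP (0.49 to 0.71) stand out below the diagonal, and the block weakens to between 0.37 and 0.65 above it.

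The genes nearest to each cytokine over the 56 arrays differed between the sets. Among the genes closest to IFNG were TAP1 (r = 0.804) and CXCL11 (0.783), a peptide transporter for antigen presentation and a chemokine for T cells. IL15 was closest to CALCOCO2 (0.782), PSMB8 (0.778) and IL18 (0.776), of which PSMB8 is an immunoproteasome subunit and CALCOCO2 an autophagy receptor. IL18 was closest to IL15 (0.776), CMPK1 (0.77) and UPRT (0.755), IL18BP to LOC100358539 (0.83), the nuclear body gene SP100 (0.824) and LOC100349257 (0.812). IL22 was closest to NFKBIZ (0.73), a nuclear regulator of NF-kappa B, RNF19B (0.724) and PLS1 (0.714), and IL18R1 to PSTPIP2 (0.708), FAM3B (0.679) and PLS1 (0.674). PLS1, an actin bundling protein of microvilli, was thus near both IL22 and IL18R1. These r include the differences between groups and are descriptions with no test.

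Downstream of IFNG, 10 of 13 listed genes were measured and 4 of them were up-regulated in FF, among them the transcription factor IRF1 (0.98, adjusted p = 0.0183), and the chemokines CXCL10 (1.89, adjusted p = 0.0295) and CXCL11 (2.43, adjusted p = 0.0333). All 10 had a positive log2FC in FF, where 47.5% of all genes did, and their median was 1.13, against 0.56 in NF and 0.21 in FFab. CXCL9 (1.60, adjusted p = 0.051) and IDO1, an enzyme of tryptophan breakdown (3.72, adjusted p = 0.0683), missed the threshold in FF. Averaged over the treatments both passed, and the number rose to 6 of 10. CXCL11, a dim gene like IFNG, was above background in 2 of 10 FF rabbits at D35 and 7 of 9 at D49. Like IFNG, CXCL11 passed the filter on low signal only through D49 groups, which favors its test. Without rabbit lap158 CXCL10 (1.63, adjusted p = 0.0726) and CXCL11 (2.11, adjusted p = 0.0794) no longer passed in FF. Upstream of IFNG, none of 5 measured of 8 listed inducers passed, and STAT4, which transmits interleukin 12, was nearest (0.48, adjusted p = 0.0532).

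Downstream of IL22, 7 of 13 listed genes were measured. REG3G, an antimicrobial lectin of the epithelium, rose by 3.95 in FF (SE 0.77, adjusted p = 0.000618), from a mean of 12.84 ± 1.13 (SD, n = 10) to 16.78 ± 1.39 (SD, n = 9). The transmembrane mucin MUC13 rose by 0.84 (SE 0.19, adjusted p = 0.00367). Both still passed without rabbit lap158. REG3G changed by 2.14 in NF (adjusted p = 0.478) and by 2.61 in FFab (adjusted p = 0.2), neither past the threshold, and over the treatments by 2.90 (adjusted p = 7.91e-06). The other 5, among them the receptor chains IL22RA1 (-0.08) and IL10RB (0.05), did not pass, and the list median in FF was 0.10. Of 5 measured among 8 inducers of IL22 none passed, with IL23A at 0.45 (adjusted p = 0.674) and IL23R at 0.34 (adjusted p = 0.691).

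Around the epithelial cytokines few partners were measured. Of 10 genes of the IL15 receptor and its signaling only JAK1 (0.17) and PIM1 (-0.07) were measured, and of 13 genes of IL18 processing and signaling only 4 were, led by CASP1, which cuts the IL18 precursor (0.38, adjusted p = 0.486). None passed. In the IL17 family 5 of 11 were measured and none passed, with IL17A at 0.73 (SE 0.48, adjusted p = 0.397) beside the 0.73 (SE 0.22) of IL17B.

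Other cytokines placed the 7 genes in a wider set. Of 14 further cytokines that epithelium can make, 6 were measured and 2 passed in FF: TNFSF13, which supports immunoglobulin A class switching (0.77, adjusted p = 0.00759), and TNFSF10, a death ligand (1.31, adjusted p = 0.0431, and 1.22 with adjusted p = 0.0775 without rabbit lap158). TNFSF13 also passed in FFab (0.89, adjusted p = 0.0333). Of 18 further lymphocyte cytokines 9 were measured, all with a positive log2FC and a median of 0.43 in FF, and 3 passed: the chemokines CCL5 (2.41, adjusted p = 0.0044) and CCL4 (1.03, adjusted p = 0.0352) and the death ligand FASLG (0.91, adjusted p = 0.0198). The only measured marker of 11 for cytotoxic lymphocytes, PRF1 (perforin), rose by 1.03 in FF (adjusted p = 0.0304). Its level lay between 7.83 and 10.42 in FF at D35 and between 9.70 and 11.12 at D49.

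**Figure D5:**
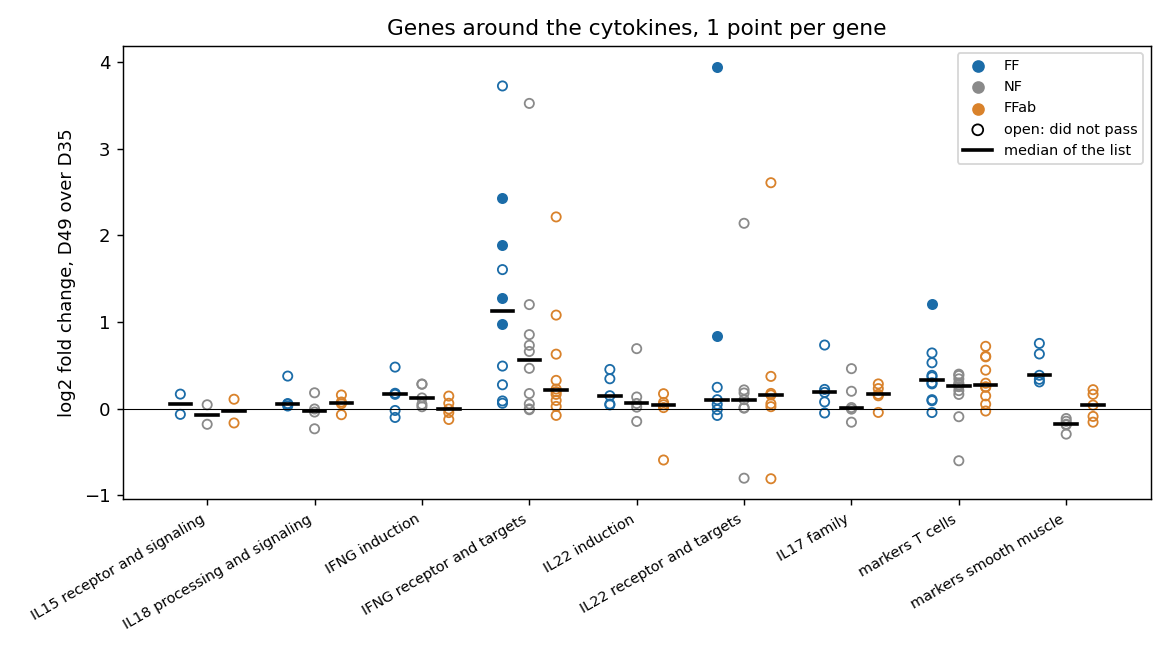
log2 fold change from D35 to D49 of the measured genes of each list, 1 point per gene and treatment, with the list median as a bar; filled points passed the test. The receptor and target list of IFNG has a median of 1.13 in FF, and the other lists drawn here have medians between 0.05 and 0.39 in FF.

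Markers of other tissues moved with age as well, and the part of any tissue or cell type in the cytokine changes was not tested. The covariate fits above, for T cells and smooth muscle, give only the changes that remained beside a marker mean. Such a mean can itself follow age, as CD96 among the T cell markers did in FF. Of 3 measured of 6 fat markers, FABP4 (1.67, adjusted p = 0.0156) and LPL (1.54, adjusted p = 8.95e-05) passed in FF, and their summed level was 12.81 to 15.26 at D35 and 14.95 to 16.06 at D49. Of 9 measured epithelial markers, ALPI, the alkaline phosphatase of the brush border, rose (1.13, adjusted p = 0.00813) and KRT18, a keratin, fell by 0.62 (adjusted p = 0.00739), with a list median of 0.004. EPCAM stood at -0.06 (adjusted p = 0.87). None of 5 measured of 10 myeloid markers passed, and of 3 measured of 8 B and plasma cell markers TNFRSF17, the receptor of TNFSF13, passed (0.95, adjusted p = 0.0254).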

How the data were processed

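Total RNA of whole ileum was hybridized by the authors to Agilent single-color rabbit arrays and read with Feature Extraction (version 10.10.1.1 in the file headers, 10.7.3.1 in the submitters' processing notes; build oryCun2). The deposited files hold spot intensity values, with a processed signal corrected for background by the scanner software, and a deposited table of log2 values. Here the processed signal was averaged over the spots of a probe, without spots flagged as outliers. Its log2 was then quantile normalized over 56 arrays. Probes entered if, on 75% or more of the arrays in some group, 50% or more of their spots were well above background (31722 of 42089 probes, of which 14974 had no single gene name). Each of 7969 genes was read from the probe of median level. Models with 1 mean per group were fitted with limma 3.58.1 in R 4.3.3, with Benjamini-Hochberg adjustment. Detection was compared with Fisher's exact test and levels with permuted correlations (scipy 1.17.1, numpy 2.4.6). The fits were tested on simulated data. Alternatives were another scaling, background correction, filter, probe choice, array set, slide as a block, array weights and the table of the authors. The covariate fits and the values without rabbit lap158 were added after the data had been seen. Groups came from the labels. Members and lists were chosen with earlier results of these data known. Named were all members with all probes, list genes that passed or otherwise up to 4 with the smallest p, and the 3 genes nearest to each member. A gene that this rule names is not reported here. EPCAM and the receptor genes given with values that did not pass were named after their values were seen. The number of arrays limits the precision.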

Additional observations from a re-analysis of the deposited data

Results flagged for a closer look

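Of 42 sets of values (7 genes in 6 groups), 6 held a rabbit far from the rest of its group, where chance alone gives about 1 in 20. In FF at D49 rabbit lap158 had an IFNG level of 7.80 (next 5.65) and an IL22 level of 11.3 (next 5.71). For IL18R1, NF rabbit lap211 at D49 was at 9.18 (next 6.90) and FFab rabbit lap108 at D35 was at 7.53 (next 6.06). FFab rabbit lap201 at D49 had the lowest IL18 of its group, 11.23 (next 11.99), and NF rabbit lap170 at D49 the lowest IL17B, 8.22 (next 8.75). These values are those of the log2 scale, and no explanation of them was tested.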

How the results depend on the processing

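Over the alternatives none of the 7 genes changed direction where it had passed. In FF all 7 passed as reported, and 4 did with the T cell markers as covariate. Leaving out each array in turn left between 4 and 7, the lowest without rabbit lap158. Over the treatments 3 passed as reported and 1 with the normexp background, and 3 to 4 when each array was left out. IL15, IL18 and IL18R1 passed in FF in every alternative that was run, though none of these read IL18 from probe A_04_P001101. IL22 in FF did not pass with the normexp background (0.90, adjusted p = 0.124), the median signal (1.10, 0.113), the table of the authors (0.95, 0.18), no filter (1.98, 0.145), array weights (1.99, 0.0718) or the FF arrays alone (2.41, 0.0674). In the table of the authors and with no filter, IL22 was read from probe A_04_P089395 and not from the tested probe. IFNG in FF did not pass with the 75th percentile scaling (1.45, 0.0512) or the normexp background (0.48, 0.0535), and IL18BP not with the FF arrays alone (0.82, 0.0518). Over the treatments IL22 passed with slide as a random block (1.18, 0.0459) and with array weights (1.29, 0.0272). The cause of these changes was not tested. IFNG and IL22 were left out of the alternative with probes above background on every array. For treatment differences and differences between age changes, 0 of the 7 passed in every alternative. No paired analysis was possible because each rabbit number belongs to 1 group only. Signal near background limits IFNG and IL22, which were above it on 30 and 20 of 56 arrays.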
